A study of Mus musculus with 4 samples.

Results

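State 3 is 1 of the 7 numbered states into which the study's authors divided microglia, the resident immune cells of the brain. Its members are the cells that the authors' own cell table places in that state, matched by barcode to the raw counts. They number 361 of 9077 microglia with a state, and of 15451 cells in all. The cells were CD45+ immune cells sorted from cortex of mice aged 18 months and profiled with 10x Genomics 3′ chemistry, which counts transcript molecules by unique molecular identifiers (UMIs). One genotype was APP/PS1, a transgenic line that deposits amyloid, called AD here. The other was APP/PS1 Axl-/- Mertk-/-, which also lacks the receptor tyrosine kinases Axl and Mertk, called ADAM. Both genotypes carry APP/PS1, so no amyloid-free group is compared. Each genotype had 2 libraries, named AD 1, AD 2, ADAM 1 and ADAM 2, and each library pooled 2 cortices. The labels give no sex and no promoter for the transgenes.

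The ribosome is built from ribosomal RNA and many small proteins, whose messenger RNAs are short, stable and abundant. Most messenger RNA sits in the cytoplasm, whereas some long noncoding RNAs, Malat1 above all, stay in the nucleus. Immediate early genes such as Fos and Egr1 are switched on within minutes of a stimulus, tissue dissociation included, and their transcripts decay quickly. In amyloid-bearing brain, microglia range from a homeostatic form, marked by P2ry12 and Tmem119, to a disease-associated form, marked by Cst7, Apoe and Spp1.

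AD 1 gave 69 cells and 196063 UMIs of state 3, AD 2 gave 76 and 378604, ADAM 1 gave 104 and 389306, and ADAM 2 gave 112 and 391130. The authors marked none of the 361 cells as a doublet. A cell of the state carried from 639 to 17336 UMIs. Across the 4 libraries 24 barcodes occurred in 2 libraries, and 1 of these cells was in state 3. Counts of the 2 libraries of a genotype were further apart than sampling alone gives (chi-square over its degrees of freedom 3.4 in AD, 4.98 in ADAM). The series' design names the libraries biological replicates, and p-values between genotypes measure the spread between these pools.

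The cells of state 3 were shallower and held fewer kinds of transcript than the other 6 states pooled, though state 2 was shallower still. Their median depth was 2498, 4076.5, 3360 and 3158 UMIs in AD 1, AD 2, ADAM 1 and ADAM 2, against 4889, 6245, 5611 and 5848 in the other 6 states together. With each cell thinned to 1000 UMIs, the median number of genes was 449 to 461 in state 3 and 568 to 587 in other microglia. State 3 stood lower in each of the 4 libraries. State 2 had median depths of 808.5 to 886.5 UMIs, and its thinned cells held 520 to 570.5 genes, from the minority of its cells that reached 1000 UMIs. Thinning left out 11 shallower cells of state 3, namely 2, 2, 4 and 3 in the same order of libraries. The median mitochondrial share was 4.19% to 4.82% of UMIs in state 3 and 2.57% to 3.12% in other microglia, with 1.89% to 5.19% in state 2.

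All 11 microglial markers had UMIs in state 3 in each of the 4 libraries, and they summed to 14455, 11484, 13563 and 10183 CPM (UMIs of a gene scaled to the same total in each set of summed cells). In other microglia the same markers summed to 20042, 19525, 20071 and 15671 CPM. P2ry12, a purine receptor of resting microglia, had a UMI in 76.8%, 78.9%, 85.6% and 72.3% of state 3 cells, against 6.36% to 12.2% of T and NK cells, a class without this receptor. The median depth of those T and NK cells was 2925.5 to 3547.5 UMIs. Of 12 neutrophil markers, 3, 3, 5 and 10 were above 0, summing to 122, 58.1, 100.2 and 1544 CPM, with the granule gene Ltf and the surface marker Ly6g at 0 in all 4 libraries. Erythroid markers summed to at most 25.6 CPM, brain macrophage markers to at most 35.7 CPM, and T and NK markers to at most 48.8 CPM. Choroid plexus markers were at 0 in 3 libraries and at 74.1 CPM in ADAM 2.

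The name of the state was checked against its proposed markers, the B cell chemokine Cxcl13 and the neutrophil gene S100a9, and neither marked its cells in general. Cxcl13 had a UMI in 1 of 69, 1 of 76, 3 of 104 and 0 of 112 cells. It gave 7, 1, 78 and 0 UMIs, and 76 of the 78 UMIs in ADAM 1 came from 1 cell. Its mean level in state 3 over that in other microglia was 2.83 on the log2 scale, and 0.38 without that cell. The 0 of 112 cells in ADAM 2 allows a share of up to 2.68% by the floor of 3 counts, with an exact 95% upper limit of 3.24%, for counting error only. T and NK cells, which lack the gene, had a Cxcl13 UMI in 0.136% to 0.59%.

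S100a9 was present in most state 3 cells of 1 library alone. It had a UMI in 1.45% (exact 95% interval 0.0367 to 7.81) and 3.95% (0.822 to 11.1) of state 3 cells from the AD libraries, 3.85% (1.06 to 9.56) from ADAM 1 and 79.5% (70.8 to 86.5) from ADAM 2. In ADAM 2, S100a9 had a UMI in 80.6% of other microglia and in 80.2% of T and NK cells, so the state 3 share lay at that of cells that should lack the gene. Each cell held on average 2.3 S100a9 UMIs in state 3, 2.21 in other microglia and 2.81 in T and NK cells of that library. S100a8, the partner of S100a9, had a UMI in 83% of state 3 cells and 82.2% of T and NK cells of ADAM 2. After thinning to 1000 UMIs the S100a9 shares in ADAM 2 were 49.5% in state 3, 26.7% in other microglia and 41.2% in T and NK cells. The log2 ratio of mean S100a9 CPM, state 3 over other microglia, was 0.88, and −0.24 without ADAM 2. The ribosomal part of the name held in each library, as the next values show, and the cells are called state 3 below.

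Ribosomal protein genes took 26.9%, 30.3%, 28% and 32.6% of state 3 UMIs, with libraries ordered AD 1, AD 2, ADAM 1, ADAM 2. In other microglia they took 16.4%, 17.5%, 17.7% and 19.4%. The difference was 11.72 percentage points (SD 1.46, n = 4 libraries), and the lowest state 3 library stood above the highest library of any other state, which was 22.5% in state 6. Since the state was defined on the same cells, the difference is a description and carries no test. The share varied among state 3 cells, with the tenth percentile at 19.8% to 22.8% and the ninetieth at 33.6% to 38.6% in the 4 libraries.

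Of the 83 cytosolic ribosomal protein genes at 10 CPM or more in state 3 or in other microglia, 81 were higher in state 3 in 4 of 4 libraries. Of all 7656 genes at that level, 7.51% were. The median log2 fold over the list was 0.70 and that over all genes was −0.70. Over the 2763 genes at 50 CPM or more it was −0.41. Folds here are means of the per-library log2 ratios with 0.5 added to each count. The proteins of both subunits moved alike, with 48 of 50 large-subunit genes (median 0.69) and 33 of 33 small-subunit genes (median 0.72) higher in 4 of 4 libraries.

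Rps26, a protein of the small subunit near the messenger RNA exit (chromosome 10, 128624534 to 128626747), had the largest fold. It stood at 2698, 2950.3, 3085 and 3109 CPM in state 3 of AD 1, AD 2, ADAM 1 and ADAM 2, and at 1192, 1150.0, 1324 and 1376 CPM in other microglia, a log2 fold of 1.23 (SD 0.09, n = 4). Among the other large folds were Rpl39 at 0.91 (SD 0.01) and Rps12 at 0.87. At the other end stood Rpl7l1, a paralog of Rpl7 with a role in ribosome assembly, at a log2 fold of −0.65 (SD 0.57). Rpl4 at 0.23 was not higher in each library, while Rpl3 (0.40) and Rps14 (0.49) were.

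Many ribosomal protein transcripts begin with a C followed by a run of pyrimidines, the 5′ terminal oligopyrimidine stretch through which their translation is regulated together. The list moved together, so the start windows of the 4 genes with the largest folds among matches of more than 6 bases are printed. Each runs from 20 bases before the RefSeq start (GRCm38.p6) to 20 bases from it, on the transcript's strand, with the C and the pyrimidines after it in capitals.
Rps26: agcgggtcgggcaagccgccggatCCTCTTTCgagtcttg
Rpl35: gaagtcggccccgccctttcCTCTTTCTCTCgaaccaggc
Fau: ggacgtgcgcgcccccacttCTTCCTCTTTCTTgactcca
Rps24: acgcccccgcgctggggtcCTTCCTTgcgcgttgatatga
The windows lie at chr10:128626487-128626526 (minus strand), chr2:39005112-39005151 (minus), chr19:6057927-6057966 (plus) and chr14:24490658-24490697 (plus). A C followed by at least 4 bases that are C or T, beginning within 5 bases of the annotated start, was searched for on the transcript's strand only. It was found for 30 of 64 ribosomal protein genes with a window (46.9%), 23.6% of all 12151 genes with a window, 28.1% of translation factor genes and 8.7% of immediate early genes. A match describes letters only and is no measurement of translation.

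Other genes of protein synthesis did not move as one with the ribosomal proteins. Of 41 translation initiation and elongation genes, 23 were higher and 10 lower in 4 of 4 libraries, with a median log2 fold of 0.23. Eef1b2, a nucleotide exchange subunit of the elongation factor, was higher at 0.68, and Eif4ebp1, a repressor of cap-dependent initiation, at 0.73. Eif4a2, a helicase of initiation, was lower at −1.30, and the scaffold Eif4g1 at −0.79. Of 29 genes that assemble ribosomes in the nucleolus, 4 were higher (13.8%) and 13 lower (44.8%), with a median of −0.43. Over all genes 7.51% were higher and 55.3% lower, so the share of lower members was not above that of all genes. Among them the nucleolar GTPase Gnl3 stood at −1.76 and Nop56, a core protein of small nucleolar ribonucleoproteins, at −1.49, while Nop10, a small protein of another class of these particles, stood at 0.88. Mitochondrial ribosomal proteins had a median of 0.01, with 11 of 74 higher and 12 lower.

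The genes of the respiratory chain were also higher. Of 13 mitochondrially encoded genes, 12 were higher in 4 of 4 libraries (median log2 fold 0.59), among them mt-Cytb at 0.63 and mt-Co3 at 0.62. Of 71 nuclear-encoded members, 50 were higher and 1 lower, with a median of 0.52. Among all genes 7.51% were higher and 55.3% lower in 4 of 4 libraries, with a median of −0.70. Atp5e, the epsilon subunit of ATP synthase, stood at 1158, 895, 925 and 918 CPM in state 3 and at 540.3, 453, 521 and 491 CPM in other microglia, a log2 fold of 0.96 (SD 0.12). The complex I subunits Ndufa3 (0.92), Ndufb6 (0.83) and Ndufc1 (0.83) and Ndufa12 (0.73) were also among the 15 genes with the largest lowest-of-4 fold.

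The ferritin chains, which store iron, were the most abundant of those 15 genes. Fth1, the heavy chain, was at 13705, 16888, 14811 and 15846 CPM in state 3 and at 7978, 7806, 8239.6 and 9124 CPM in other microglia (log2 fold 0.88, SD 0.16). Ftl1, the light chain, was at 7008, 8663, 7716 and 6747 CPM against 3797, 3694, 3684 and 3861 CPM. No state 3 library overlapped the other microglia for either chain. State 4 exceeded state 3 in the summed ferritin share, at 3.1% to 4.49% of UMIs against 2.07% to 2.56%. The remaining genes of the 15 include the tubulin regulator Stmn1 (1.10), Wdr89 (0.99), Serf2 (0.84), Hsbp1 (0.77), the ubiquitin-like Nedd8 (0.77), the centromere protein Cenpx (0.73) and Sh3bgrl3 (0.72).

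The nuclear RNA Malat1 was nearly missing from state 3, and other members of a list drawn up for nuclear-retained RNA were lower to varying degrees. Malat1 (chromosome 19, 5795690 to 5802672), a nuclear long noncoding RNA, stood at 510.0, 319.6, 1813 and 1432 CPM in AD 1, AD 2, ADAM 1 and ADAM 2, against 21750.4, 23455, 21444 and 24108 CPM in other microglia. The mean log2 fold was −4.81 (SD 1.21, n = 4), and the highest state 3 library lay far under the lowest of the others. All 8 members of that list at 10 CPM or more were lower in 4 of 4 libraries. The median log2 fold of these 8 was −2.17, with a range from −5.15 to −0.48. The list as drawn up also holds the protein-coding genes Macf1, Son and Srrm2, so it is not made of nuclear noncoding RNA alone. The count is read beside the 55.3% of all genes that were lower in 4 of 4. Neat1, the scaffold RNA of paraspeckles, stood at −4.26 and the imprinted Kcnq1ot1 at −5.15.

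Cell by cell, 166 of the 361 state 3 cells had no Malat1 UMI at all. Malat1 took under 0.3% of UMIs in 337 of them and in 85 of 8716 other microglia. This limit was set after the values were seen, and few state 3 cells lie near it, with 7 between 0.15% and 0.3% and 4 between 0.3% and 0.6%. The 24 state 3 cells at or above 0.3% were 4, 2, 11 and 7 in AD 1, AD 2, ADAM 1 and ADAM 2. After thinning to 1000 UMIs, Malat1 was found in 22.4%, 23%, 29% and 29.4% of state 3 cells, against at least 99% of other microglia in each library. Cells of other classes also fell under the limit, including 13.7% to 17.1% of macrophages, but only 0.121% to 0.678% of T and NK cells did. State 2 held the opposite profile, with Malat1 at 6.4% to 8.54% of UMIs and ribosomal protein genes at 5.56% to 8.23%. State 3 cells thus held little Malat1, a high ribosomal share and low depth together, and the part of each in the others was not tested.

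**Figure D1:**
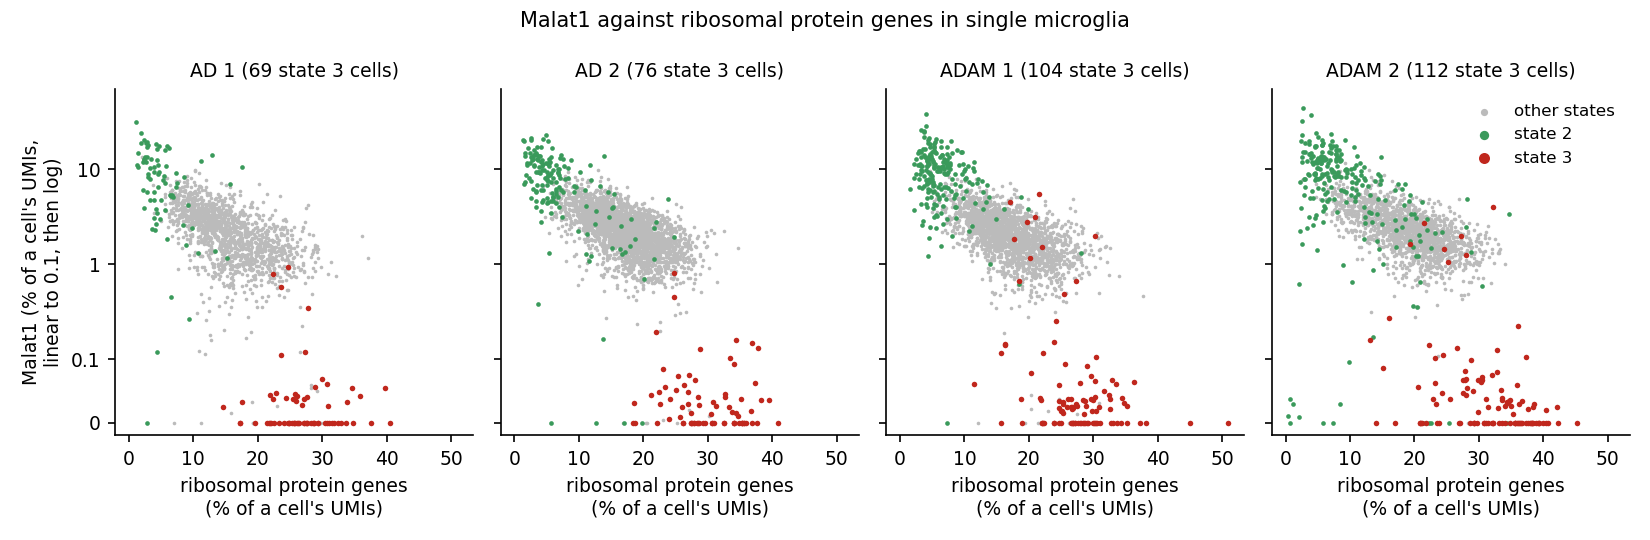
Each point is 1 microglial cell, by the share of its UMIs on ribosomal protein genes (x axis, percent) and on Malat1 (y axis, percent, linear to 0.1 and logarithmic above), in 4 panels by library, with state 3 in red, state 2 in green and other states in grey. Most state 3 cells lie at or near 0 on the Malat1 axis and to the right on the ribosomal axis, with 24 of 361 at 0.3% or more.

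The immediate early and dissociation genes were also low. Of 26 at 10 CPM or more, 24 were lower in state 3 in 4 of 4 libraries and 0 higher, with a median log2 fold of −3.48. Among all genes 55.3% were lower and 7.51% higher, with a median of −0.70. Fos, a subunit of the AP-1 transcription factor (chromosome 12, 85473890 to 85477273), was at 30.6, 39.6, 53.9 and 76.7 CPM in state 3 and at 977, 1129, 872 and 1396 CPM in other microglia, a log2 fold of −4.45 (SD 0.45). Egr1, a zinc finger transcription factor, was at 20.4, 15.8, 25.7 and 17.9 CPM against 499, 593, 486 and 628 CPM (−4.69, SD 0.46). Fosb, a relative of Fos, had 0, 0, 2.57 and 2.56 CPM, which is 0 or 1 UMI a library, against 113 to 170.3 CPM. Jun stood at −4.39, the growth inhibitor Btg2 at −4.49 and Rgs1, which quiets G protein signalling, at −4.69.

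Other genes with the lowest highest-of-4 fold included the linker histone Hist1h1d (−5.01) and the phosphatase subunit Ppp1r15a (−4.48). Several inflammatory genes were low. The feedback regulators Socs3 (−4.30), Nfkbiz (−4.21) and Tnfaip3 (−3.40) and the cytokine Tnf (−3.95) were the lowest members of a list of 18 with a median of −1.30. Of that list 12 were lower in 4 of 4 libraries (66.7%) and 0 higher, not far from the 55.3% lower among all genes. Glycolysis and hypoxia genes had a median of −0.14, MHC class I genes −0.66, interferon genes −0.83 and lysosomal genes −0.43, beside −0.70 for all genes.

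Several of the low genes carry the AU-rich nonamer TTATTTATT, a known signal for rapid decay, in the 3′ untranslated region. A site from each of 4 of the 10 lowest genes is printed with 6 bases to either side, on the transcript's strand, from GENCODE vM21 transcripts (GRCm38), with the nonamer in capitals, because these genes carry the largest drops.
Rgs1: tgtttaTTATTTATTacttga
Hist1h1d: atgtatTTATTTATTtaaaat
Fos: ttcaatTTATTTATTaagatg
Ppp1r15a: ttcctaTTATTTATTtattta
The region of Hist1h1d, annotated at 4931 bases, held 3 nonamers, and that of Ppp1r15a, at 71 bases, held 4. Those of Rgs1 and Fos held 1. Overlapping nonamers were each counted, and 1 a gene is in capitals. The Ppp1r15a window holds another that overlaps the marked one and runs on into lower case. The printed sites lie at chr1:144243186-144243206, chr13:23556798-23556818, chr12:85477107-85477127 and chr7:45522961-45522981. Of the 10 lowest genes 9 had an annotated 3′ region and 4 of these held the nonamer, against 0 of the 15 highest, whose regions were shorter (median 350 against 1670 bases). Over all coding genes the median log2 fold was −1.05 for 591 genes with the nonamer and −0.66 for 6885 without it. Among genes with long 3′ regions it was −1.08 for 469 with and −0.88 for 3269 without.

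The fold followed transcript length across all coding genes. In 4 bins of annotated transcript length, from the shortest to the longest, the median log2 fold was −0.09, −0.59, −0.91 and −1.14, over 1871, 1874, 1865 and 1870 genes. Spearman's rho across these 7480 genes was −0.51, and −0.50 without ribosomal protein genes. Genes are not independent replicates, they share the same cells and libraries, and the value carries no p. Among genes at 50 CPM or more the bins stood at 0.27, −0.31, −0.66 and −1.10. The length of the gene on the chromosome gave a weaker rho of −0.35 and the 3′ region −0.33. Long intergenic noncoding RNAs had a median of −1.63 (65 genes) and antisense transcripts −1.70 (38 genes). Reads of antisense transcripts and of the gene opposite may not be separable here, since no source used here gives the strand setting of the counting.

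**Figure D2:**
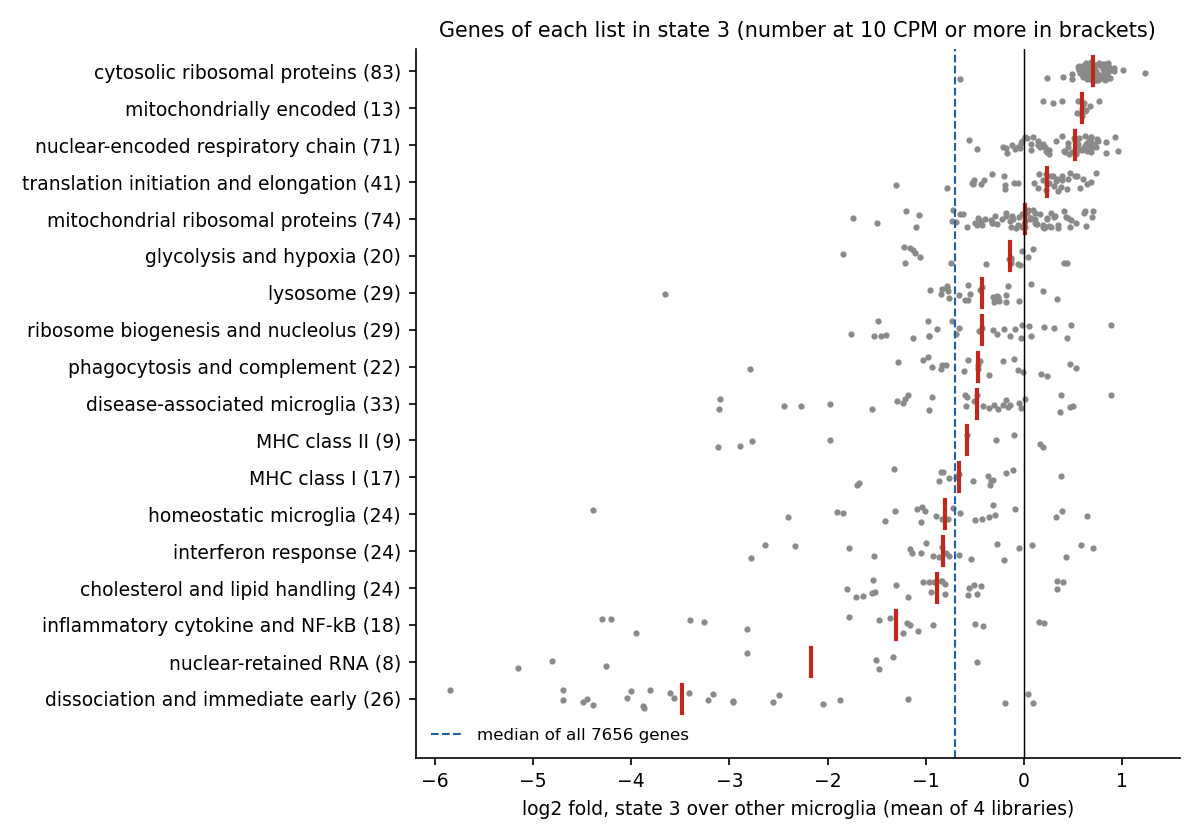
Each grey point is 1 gene, by its log2 fold of state 3 over other microglia (x axis, mean of 4 libraries), in rows by gene list, and each red bar is the median of a list. Ribosomal protein and respiratory chain lists lie right of the dashed line at −0.70, the median of all 7656 genes, and the nuclear-retained and immediate early lists lie left of it.

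Along the axis from homeostatic to disease-associated microglia, state 3 lay between states 0 and 5 mainly by the disease-associated genes. Thinned cells of state 0 mostly held P2ry12 without Cst7, and those of state 5 mostly held Cst7 without P2ry12. Of 33 disease-associated genes, 25 were higher in state 3 than in state 0 in 4 of 4 libraries and 0 lower, where 9.78% of all genes were higher and 59.95% lower. Against state 5, 3 were higher and 29 lower, where 10.1% of all genes were higher and 41.9% lower. The median log2 fold of the list was 0.89 over state 0 and −1.09 over state 5. Of 24 homeostatic genes, 22 were lower than in state 0 (median −1.32), and against state 5, 12 were higher and 7 lower (median 0.21). By the mean fold, 27 of the 33 disease-associated genes stood above state 0 and below state 5, and 14 of the 24 homeostatic genes stood below state 0 and above state 5.

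Genes at the far end of the disease-associated programme were low in state 3 against other microglia, a pool that includes state 5. Against state 0, 0 of the 33 listed genes were lower in 4 of 4 libraries, and the lowest mean log2 fold was −0.70. Spp1, which encodes osteopontin, was at 423, 92.4, 193 and 675 CPM against 4291, 1592, 1919 and 2147 CPM in other microglia (log2 fold −3.10). Against state 5 its log2 fold was −4.31, while its state 0 levels were only 35.5 to 56.3 CPM. Against other microglia Gpnmb, a glycoprotein of lipid-laden phagocytes, stood at −3.11, the integrin Itgax at −2.44 and the growth factor Csf1 at −2.27. The antigen-presenting genes H2-Eb1 (−3.12), H2-Ab1 (−2.89), H2-Aa (−2.77) and Cd74 (−1.98) were the 4 lowest of the MHC class II list against other microglia, and against state 0 the log2 folds of H2-Aa and Cd74 were 1.40 and 1.45. The list as a whole had a median of −0.58, beside −0.70 for all genes. Of its members 6 of 9 were lower in 4 of 4 libraries (66.7%), where 55.3% of all genes were. Ctss (0.19), H2-Oa (0.16) and H2-Ob (−0.10) did not share the large drop. Of the homeostatic genes, the fractalkine receptor Cx3cr1 was at 694, 637, 639.6 and 662 CPM against 2458, 2765, 2377 and 2337 CPM (−1.91, SD 0.14). It lay below state 0 (3100.0 to 3710.5 CPM) and also below state 5 (1257 to 1479.5 CPM), so it was not between them.

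The 2 marker genes were found in varying combinations within the state. In cells thinned to 1000 UMIs, P2ry12 without the cathepsin inhibitor Cst7 was found in 44.8%, 20.3%, 35% and 22% of state 3 cells of AD 1, AD 2, ADAM 1 and ADAM 2. Cst7 without P2ry12 was found in 19.4%, 28.4%, 21% and 21.1%, both genes in 13.4%, 13.5%, 17% and 17.4%, and neither in the rest. In state 0, P2ry12 alone was found in 62% to 77.5% and Cst7 alone in 1.9% to 4.5%. In state 5, P2ry12 alone was found in 2.41% to 5.24% and Cst7 alone in 52.2% to 65.1%. Free RNA can add UMIs, and P2ry12 was found in 2.07% to 4.9% of T and NK cells thinned to the same depth.

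**Figure D3:**
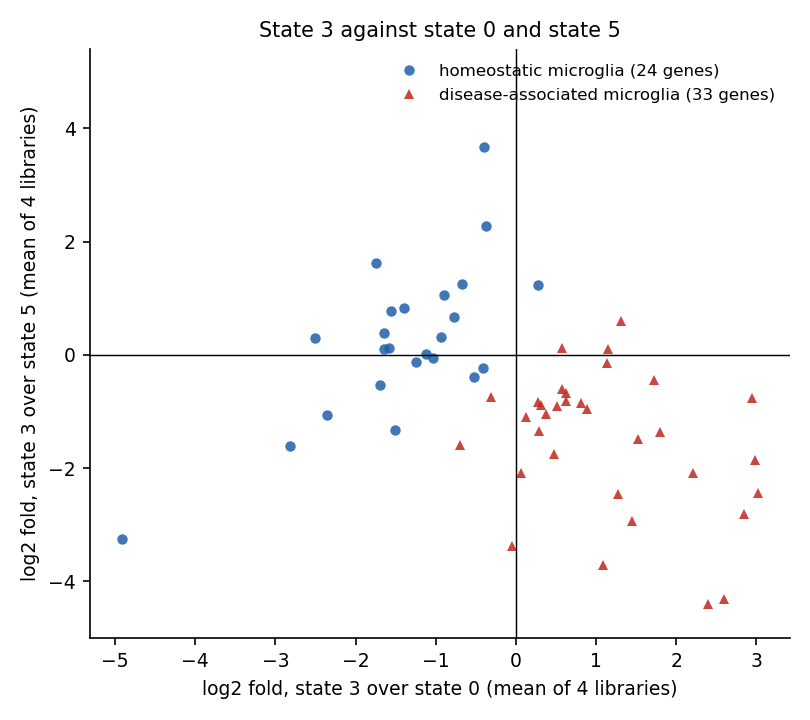
Each point is 1 gene, by its log2 fold of state 3 over state 0 (x axis) and over state 5 (y axis), both means of 4 libraries, with 24 homeostatic genes as blue circles and 33 disease-associated genes as red triangles. Of the triangles 27 lie at the lower right, above state 0 and below state 5, and 14 circles lie at the upper left.

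The deleted receptors and their ligands were examined next. Mertk, a receptor for phagocytosis of dying cells, was low in state 3 as a whole, at 56.1, 74, 25.7 and 20.5 CPM against 279, 300.3, 252 and 282 CPM in other microglia, a log2 fold of −2.79 (SD 0.80). The bridging ligand Gas6 was at 219, 217, 213 and 225 CPM, a log2 fold of 0.17 (SD 0.04), and the ligand Pros1 at −0.01 (SD 0.36). Tyro3, the third receptor, had 0 UMIs in state 3 in each library.

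The share of microglia in state 3 was 4.31% (exact 95% interval 3.37 to 5.43) for AD 1, 2.45% (1.94 to 3.06) for AD 2, 4.49% (3.68 to 5.41) for ADAM 1 and 5.44% (4.5 to 6.51) for ADAM 2. Both ADAM libraries were above both AD libraries, though ADAM 1 and AD 1 had overlapping intervals. Over libraries, the log2 difference of ADAM over AD was 0.56 (SE 0.65) and did not pass (edgeR over the 7 states, adjusted p = 0.845). With 2 libraries a side, the smallest two-sided p of an exact permutation test is 0.333.

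Between the genotypes, 10 of 3191 genes tested in state 3 passed, or 0.313%, with 4 higher and 6 lower in ADAM. The test was the quasi-likelihood test of edgeR with Benjamini-Hochberg adjustment at 0.05, and 158 genes had an unadjusted p under 0.05. Levels are CPM of each library without further scaling, and log2 folds are ADAM over AD from the fit. DESeq2 and limma-voom called 4 genes each, Gatm, Malat1, Eif3j1 and Ccl3. Where libraries are compared, fewer cells of a kind and less RNA per cell cannot be told apart.

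Axl, the receptor deleted in ADAM, gave 9 and 20 UMIs in AD 1 and AD 2 and 0 and 2 in ADAM 1 and ADAM 2, or 45.9, 52.8, 0 and 5.11 CPM (edgeR adjusted p = 0.00234). The genotypes did not overlap. Leaving out AD 1 ended the call (edgeR adjusted p = 0.0828), as did DESeq2 and limma-voom, with 2.6e-05 to 0.824 over its 12 alternatives. For Mertk the fitted log2 fold was −1.53 (SE 0.43), with no overlap between the genotypes, and it did not pass (edgeR adjusted p = 0.196). No source used here gives the deleted part of Mertk, and 3′ reads outside it check nothing about the label.

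The genes Gatm, Eif3j1, Spint1 and Eif3j2 changed in state 3 and also separated by genotype in other microglia. Gatm, the first enzyme of creatine synthesis (chromosome 2, 122594467 to 122611303), was at 133 and 164 CPM in AD and 1236 and 800.2 CPM in ADAM, and at 91.2, 115, 911 and 671 CPM in other microglia. Its fitted log2 fold in state 3 was 2.75 (SE 0.23), with adjusted p = 3.8e-11 by edgeR. Eif3j1, part of the initiation factor eIF3 (chromosome 2, 122028546 to 122056598), was at 153, 111, 12.8 and 20.5 CPM in the same order, a fitted log2 fold of −2.91 (SE 0.40), with adjusted p = 7.4e-06 by edgeR. Both passed under each of the 14 alternatives. Spint1, a protease inhibitor (chromosome 2, 119237362 to 119249527), had 11 and 13 UMIs in AD and 0 in both ADAM libraries, at least 10.9-fold lower at a floor of 3 UMIs over the group (edgeR adjusted p = 0.00296). Eif3j2, a near copy of Eif3j1, had 1 UMI in AD and 38 in ADAM, a ratio of 28 (counting interval 4.73 to 1134, edgeR adjusted p = 0.00234), and it no longer passed without AD 2, by DESeq2 or by limma-voom. Reads can be shared between the copies, so the Eif3j1 and Eif3j2 values are uncertain. The state by genotype term of these 4 genes did not pass (edgeR adjusted p 0.997 or 1 against either set), which does not show equal change. For Eif3j1 it was −0.86 (SE 0.45) against other microglia. Gatm, Eif3j1 and Spint1 lie on the same chromosome as the deleted Mertk (chromosome 2, 128698956 to 128802894), while Eif3j2 lies on chromosome 18. For the genes on chromosome 2, position near Mertk and loss of the receptors cannot be told apart here, and neither was tested.

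Of 33 disease-associated genes tested between the genotypes in state 3, 29 had negative and 4 positive log2 folds, with a median of −0.15 beside 0.01 for all genes, and 3 passed, all lower. Libraries of the genotypes did not overlap for 13 members, all lower, where 15.9% of all genes were lower without overlap and 16.9% higher. The median lay between −0.36 and −0.09 over the alternatives. The 3 are Lpl, Ccl3 and Axl. Axl is deleted in ADAM, so its direction was set by the genotype and says nothing about the list, although it is among the 29, the 13 and the 3. Homeostatic genes had a median of −0.02 and 0 of 24 passed, with 4 members higher and 2 lower in ADAM without overlap. The share of thinned state 3 cells with P2ry12 alone was 44.8% and 20.3% in AD and 35% and 22% in ADAM, so it overlapped between the genotypes, and its part in the result was not tested.

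Ccl3, an inflammatory chemokine (chromosome 11, 83647844 to 83649355), stood at 1076 and 703 CPM for AD and at 396 and 286 CPM for ADAM, a fitted log2 fold of −1.36 (SE 0.21), with an edgeR adjusted p = 1.5e-04. Lpl, the lipase that frees fatty acids from lipoproteins (chromosome 8, 68880491 to 68907448), stood at 306 and 483 CPM for AD and at 87.3 and 171 CPM for ADAM (−1.63, SE 0.30, edgeR adjusted p = 0.018). Lgals1, a galactoside-binding lectin (chromosome 15, 78926725 to 78930465), stood at 76.5 and 108 CPM for AD and at 10.3 and 33.2 CPM for ADAM (−2.12, SE 0.42, edgeR adjusted p = 0.0046). Both AD libraries lay above both ADAM libraries for each of the 3 genes. Lgals1 no longer passed without AD 2 or without ADAM 1 (edgeR adjusted p = 0.152 and 0.269, with 6.2e-05 to 0.883 over 14 alternatives), nor by DESeq2 or limma-voom. Lpl did not pass by DESeq2, by limma-voom or without the cells at 0.3% or more of Malat1. Ccl3 was lost only when cells with a neutrophil or erythroid marker UMI were left out, which kept 3 cells of ADAM 2.

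Malat1 and the cytokine brake Socs3 were higher in state 3 of ADAM. Malat1 had a fitted log2 fold of 2.00 (SE 0.22, edgeR adjusted p = 3.6e-08), from 510.0 and 319.6 CPM in AD to 1813 and 1432 CPM in ADAM. Without the 24 state 3 cells that hold 0.3% or more Malat1, an alternative chosen after seeing the data, the levels were 155, 227, 248 and 299.6 CPM and the fold 0.49 did not pass (edgeR adjusted p = 0.999, with 4.7e-30 to 0.999 over 14 alternatives). That alternative removes cells by the measured gene itself. Socs3 gave 1, 1, 15 and 15 UMIs (edgeR adjusted p = 0.0467), a ratio of 11 (counting interval 2.8 to 95.4). The Socs3 call was lost in 9 of 13 alternatives, among them the fits without AD 2, without ADAM 1 and without ADAM 2. The splicing factor Luc7l2 (1.69, edgeR adjusted p = 0.122) was next and did not pass. Of 13 immediate early genes tested, 10 were positive with a median of 0.33 and 0 passed. Of 83 ribosomal protein genes, 69 were positive with a median of 0.09 and 0 passed. This direction did not hold without AD 1 (35 positive, median −0.03), without ADAM 2 (29 positive, median −0.03) or without cells with a neutrophil or erythroid marker UMI (17 of 82 positive, median −0.09).

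**Figure D4:**
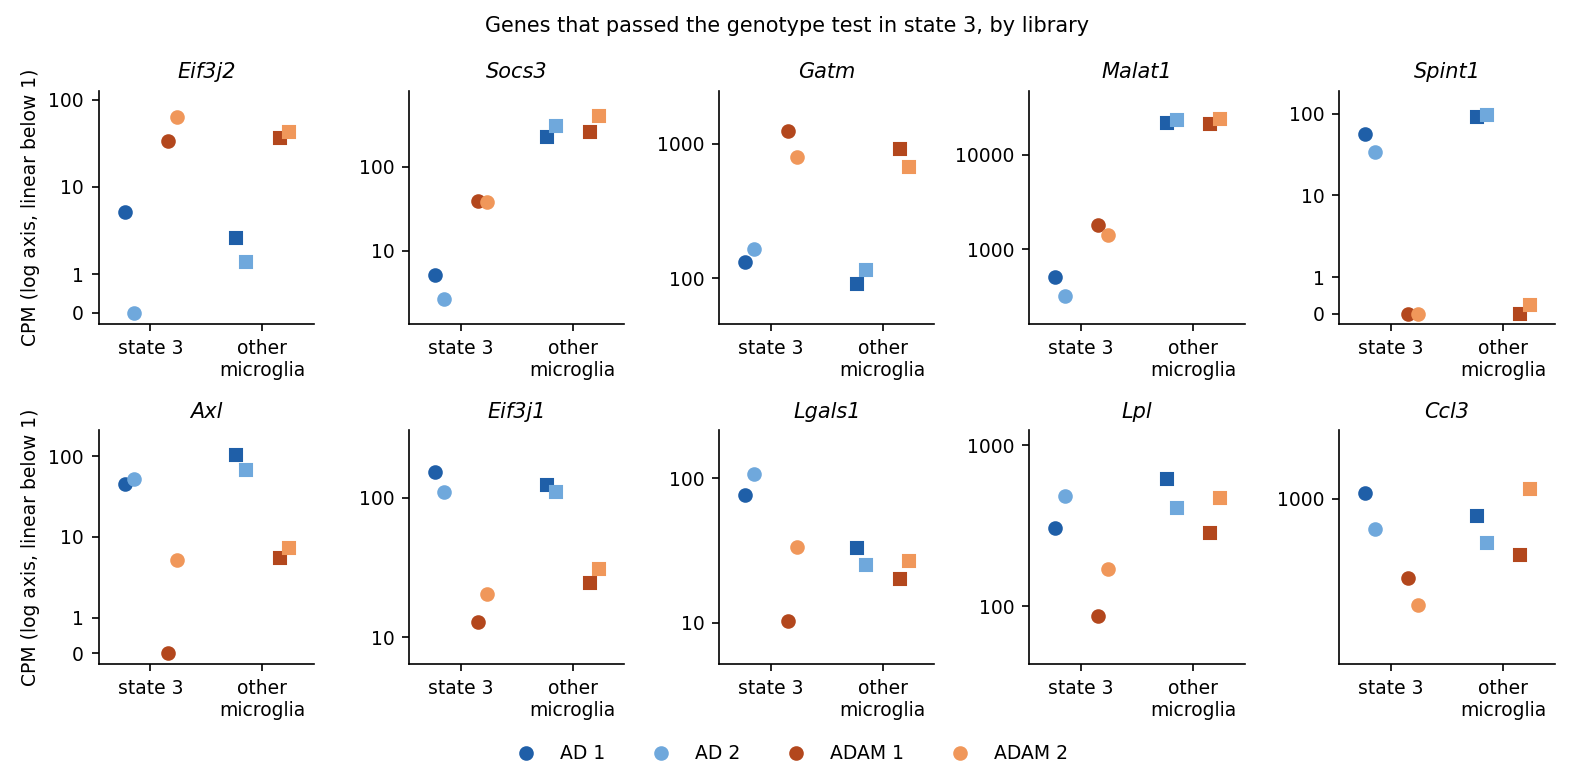
Each panel is 1 of the 10 genes that passed the genotype test in state 3, with its level in CPM (y axis, logarithmic and linear below 1) in state 3 (circles) and in other microglia (squares), 1 point a library, AD in blues and ADAM in oranges. Gatm, Eif3j1, Eif3j2, Spint1 and Axl separate by genotype in both sets of cells, while Malat1 separates in state 3 and overlaps in other microglia.

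Whether the genotype difference of state 3 differed from that of other cells was tested as a state by genotype term with library as a block. Against the other 6 states, 6 of 10887 genes passed (0.0551%), 2 with a more positive and 4 with a more negative difference in state 3, and 383 had an unadjusted p under 0.05. Against state 0, 15 of 9756 passed (0.154%), 6 more positive and 9 more negative, and 447 had an unadjusted p under 0.05. Malat1 passed in both, with terms of 2.02 (SE 0.19) and 2.14 (SE 0.18) and edgeR adjusted p of 3.0e-22 and 0.00116. Without the 24 state 3 cells at 0.3% or more of Malat1 the terms were 0.46 and 0.55 and did not pass, and the first also did not pass without TMM scaling (2.01).

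Against state 0, 6 disease-associated genes had a more negative genotype difference in state 3, and 31 of 33 members had a negative term with a median of −0.47 beside 0.06 for all genes. The 6 were Cst7, the cathepsin Ctsb, the membrane proteins Cd63 and Cd9, the chemokine Ccl6 and Lpl. Cst7 in state 3 averaged 1564 ± 262 CPM for AD and 1216 ± 186 for ADAM (SD, 2 libraries each), and in state 0 it was 196, 116, 197 and 203 CPM. Its term was −0.78 (SE 0.14, edgeR adjusted p = 6.5e-05). Ctsb averaged 3155 ± 401 and 2699.7 ± 14.6 CPM in state 3 and 1724 ± 54 and 2099 ± 68.5 CPM in state 0, so it was lower in ADAM in state 3 and higher in state 0. Its term was −0.51 (SE 0.10, edgeR adjusted p = 9.5e-04). Within state 3 alone none of Cst7, Ctsb, Cd63, Cd9 and Ccl6 passed (edgeR adjusted p 0.595 to 0.999). The list's median term was −0.24 without AD 2, beside 0.23 for all genes. It was −0.39 to −0.50 without each of the other libraries, beside 0.00 to 0.04 for all genes. The calls, however, rest on single libraries. Without AD 2 none of Cst7, Ctsb, Cd63, Cd9 and Lpl passed, without ADAM 1 none of the 6, without ADAM 2 only Cst7 and Ctsb, and without AD 1 all but Ccl6 (edgeR). Against the other 6 states the same median was −0.16, with 28 of 33 negative, beside 0.06 for all genes. Without AD 2 it was 0.13, with 22 of 33 positive, beside 0.20 for all genes. The 2 terms share their state 3 cells, so they are not independent.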

How the data were processed

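The authors deposited raw UMI counts for 16798 genes in 15451 cells, with no normalization, and a table of cells with the library, class, microglia state, UMI count, percent of mitochondrial UMIs and doublet marks. The mitochondrial percent is the authors' deposited value. The build mm10 and the tools Seurat 3.2.1.9002 and Cell Ranger 3.1.0 appear in the submitters' processing notes. No source used here gives the annotation, cell filters or clustering settings. For 15451 cells the summed counts matched the UMI and gene numbers deposited by the authors. The state was taken from the authors' annotation, in which no state 3 cell is marked as a doublet.

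For each set of cells the counts were added up within a library, and libraries were the replicates. State 3 against other cells is a description, since the state was defined on the same cells. It covers genes at 10 CPM on average in either set, with 0.5 added to counts. Genotypes were compared with edgeR 4.0.16 in R 4.3.3 (TMM, minimum count 10, robust, with genotype alone in the model), and interactions with library as a block and a state by genotype term. Standard errors were derived from each fold and its F statistic. DESeq2 1.42.0 and limma 3.58.1 were alternatives, as were other scalings and filters, a replicate block, each library left out, and sets of cells left out. The fits without cells at 0.3% or more of Malat1, and the Cxcl13 value without 1 cell, were chosen after seeing the data. The edgeR fits of genotype and of the interaction against other microglia were run on simulated counts with a fixed dispersion. The other fits were not, and no outcome is given here. Shares have exact Clopper-Pearson 95% intervals. Cells were thinned to 1000 UMIs to compare shares. Intervals and floors (3 counts) cover counting error only. Gene models are GENCODE vM21 (7590 of 7656 genes matched) and starts are from RefSeq (GRCm38.p6).

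The members and gene lists were chosen with earlier results of these data known. Named genes are Cxcl13, S100a9, S100a8 and the TAM genes, the 15 higher and 10 lower by their least favourable library at 50 CPM, the 5 largest and 5 smallest ribosomal folds, called genotype genes at a mean log2 CPM of 3 without overlap, and up to 4 members a list. Genes called in an interaction, Junb and Jun were named after their values were seen. Some genes that this rule names are not reported here.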

Additional observations from a re-analysis of the deposited data

Results flagged for a closer look

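The genes below passed the test of the state by genotype term against the other 6 states, against state 0 or against both. The report gives the values of Malat1, Cst7 and Ctsb. Terms are log2, positive where ADAM over AD is larger in state 3, with edgeR adjusted p. Against the other 6 states the terms were 2.02 for Malat1, −1.28 for Lpl (adjusted p = 0.0022), −1.46 for the chemokine Ccl3 (0.0192) and −1.03 for the chemokine Ccl12 (0.0246). Ccl3 passed in 1 of its 10 alternatives. In other microglia Ccl3 was at 816, 595, 517 and 1122 CPM in AD 1, AD 2, ADAM 1 and ADAM 2, so the genotypes overlapped there. Ccl12 was at 495, 185, 257 and 358 CPM in state 3 and at 181, 201, 321 and 478 CPM in other microglia, and its term did not pass without AD 1 (−0.34), without ADAM 1 (−1.10) or without ADAM 2 (−1.01).

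For both other terms against the 6 states the state 3 side held few UMIs. Ttr, the choroid plexus gene for transthyretin, had a term of 14.30 (edgeR adjusted p = 1.1e-15), with 0, 0, 0 and 61.4 CPM in state 3 and 683, 0, 0 and 64.1 CPM in other microglia. In UMIs that is 24 in state 3, and 5725 in AD 1 and 809 in ADAM 2 in other microglia. The fitted size depends on the prior count where libraries are at 0 and is no bound, and the term did not pass without AD 1 (0.45) or without ADAM 2 (13.84). Ptgds, the synthase of prostaglandin D2, had a term of −4.60 (edgeR adjusted p = 0.0166), with 10, 0, 4 and 0 UMIs in state 3 and 51, 24, 115 and 495 in other microglia.

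Against state 0 the negative terms were −4.57 for Ccl2, −0.78 for Cst7, −3.26 for Lgals1, −0.51 for Ctsb, −1.03 for Ccl12, −0.61 for Cd63, −0.73 for Ccl6, −1.14 for Lpl and −0.46 for Cd9. Ccl2, a monocyte-attracting chemokine, was at 286 CPM in state 3 of AD 1 and at 15.8, 5.14 and 7.67 CPM in AD 2, ADAM 1 and ADAM 2, and without AD 1 its term of −2.55 did not pass. The positive terms were 2.14 for Malat1, 1.14 for Junb, 1.77 for Luc7l2, 3.16 for Socs3, 0.97 for Tsc22d4 and 2.17 for Smad7. Junb, an AP-1 subunit, was at 81.6, 66, 169.5 and 146 CPM in state 3 and at 2574, 2192, 1992 and 2688 CPM in state 0. Without the 24 state 3 cells at 0.3% or more of Malat1, 0 of these 6 positive terms passed (9 genes passed, all negative). Tsc22d4 passed in 5 of 10 alternatives and Smad7 in 4 of 9.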

How the results depend on the processing

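The number of genotype calls in state 3, 10, was 4 with DESeq2 and 4 with limma-voom, 9 to 12 under other scalings, filters and cell sets except 7 without cells at 0.3% or more of Malat1, and 11 to 20 with 1 library left out, with 20 without ADAM 1. Replicate numbers are shared by the genotypes only as numbers, and deviations of same-numbered libraries correlated at 0.14 over 1802 genes. With the replicate block 21 genes were called, 12 higher and 9 lower, and the share of state 3 had a log2 difference of 0.60. Like totals can hold unlike genes. All 10 main calls were among these 21. Of the 9 called without cells with a neutrophil or erythroid marker UMI, which kept 3 cells of ADAM 2, only 5 were main calls. The interaction against other microglia, 6 genes, gave 1 with DESeq2, 3 without cells at 0.3% or more of Malat1 and 2 to 44 with 1 library left out (44 without AD 1, 2 without ADAM 2). That against state 0, 15 genes, gave 35 with DESeq2, which set no adjusted p for 12115 of 12753 genes, 9 without those cells and 5 to 24 with 1 library left out (24 without AD 1, 9 without AD 2, 5 without ADAM 1). The Ptgds term ranged from −14.25 to 4.58 with 1 library left out and reversed without AD 1. The ribosomal difference was 13.67 points with state 0 as reference. The S100a9 log2 ratio was 0.09 as a mean over cells and −0.24 to 0.94 with 1 library left out, the lowest without ADAM 2. The state 3 share kept its direction and did not pass in 8 alternatives (0.19 to 1.01). The cause was not tested in any of these. Of single-gene values, 258 stayed on their side of the threshold, 105 lost the call and 1 reversed. With 69 to 112 cells a library, 3191 genes were deep enough to test.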
